A study of Homo sapiens with 3 samples.

Results

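Cells treated with the low dose of etoposide were compared with control cells, across all genes that the arrays could measure. HepG2 is an established human hepatocarcinoma line that expresses wild-type p53. The control cells received 0 μM etoposide and are labeled untreated, although a table of the study names DMSO as the control, and the treated cells received 10 μM etoposide for 30 h. Both arrays were chosen by these labels, and they are 2 of the 3 arrays of the series, the other being of cells treated with 100 μM etoposide. Each condition was 1 RNA sample on 1 array, all on 1 slide, so no difference between the arrays could be checked in a replicate or given a p-value. What the culture, the RNA preparation or the array contributed to a difference cannot be told apart from the dose. Of 27274 gene names on the array, 16714 were well above background on at least 1 of both arrays and were compared. Of these, 15449 were measured on both, 524 were above background only at 10 μM with a rise as a lower bound, 686 were above background only in control cells with a fall as a lower bound, and 55 gave no usable bound.

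Etoposide poisons topoisomerase II, which cuts both strands of DNA to pass another duplex through, and leaves double-strand breaks where the enzyme stays attached. Breaks activate the kinases ATM and ATR, which stabilize p53, a transcription factor whose targets include a cell cycle inhibitor, its own antagonist, repair factors and death receptors. E2F factors drive the genes of DNA replication when the retinoblastoma protein is phosphorylated, whereas genes of G2 and mitosis are controlled through the CHR and CCAAT elements by the DREAM and B-MYB complexes.

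The signal of a probe is its background-subtracted intensity, and the 10 μM array was divided by 1.04 so that the 75th percentile over probes was equal on both arrays (514 in control cells and 536 at 10 μM before this step). A gene was represented by its brightest probe, and its difference is log2 of 10 μM over control. Where a gene was well above background on only 1 array, the other array was given its detection limit, the lowest signal counted as well above background, and the fold is written as at least. The median SD of log2 signals among repeated spots of 1 probe was 0.248 in control cells for signals of 20 to 50 and 0.0744 for 100 to 300, and at 10 μM 0.229 and 0.0674. They describe spots within an array, and the spread between cultures was not measured. Of the hepatocyte markers, 13 of 13 were well above background on both arrays, among them AFP, ALB and APOA1. The drug's target TOP2A, named for that role, had a signal of 803 in control cells and 922 at 10 μM.

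At 2-fold and above, rises outnumbered falls and reached further, although of all measured genes 7039 were higher and 8410 lower. Of the 16714 genes, 564 were higher by 2-fold or more at 10 μM (3.37%) and 263 were lower by 2-fold or more (1.57%). At 3-fold or more the counts were 215 higher (1.29%) and 60 lower (0.359%), and at 8-fold or more 31 and 6. The 6 falls of 8-fold or more were all lower bounds, and the largest fall measured on both arrays was 4.48-fold, whereas the largest measured rise was 32.1-fold. Most genes stayed close to their control signal, as 86.8% of measured genes differed by less than 1.5-fold and their median log2 difference was -0.03. Of 50 measured genes that rose 2-fold and had other measured probes, all probes rose 2-fold or more in 28 and all were higher in 45. For 21 such genes that fell, all probes fell 2-fold or more in 5 and all were lower in 19.

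**Figure D1:**
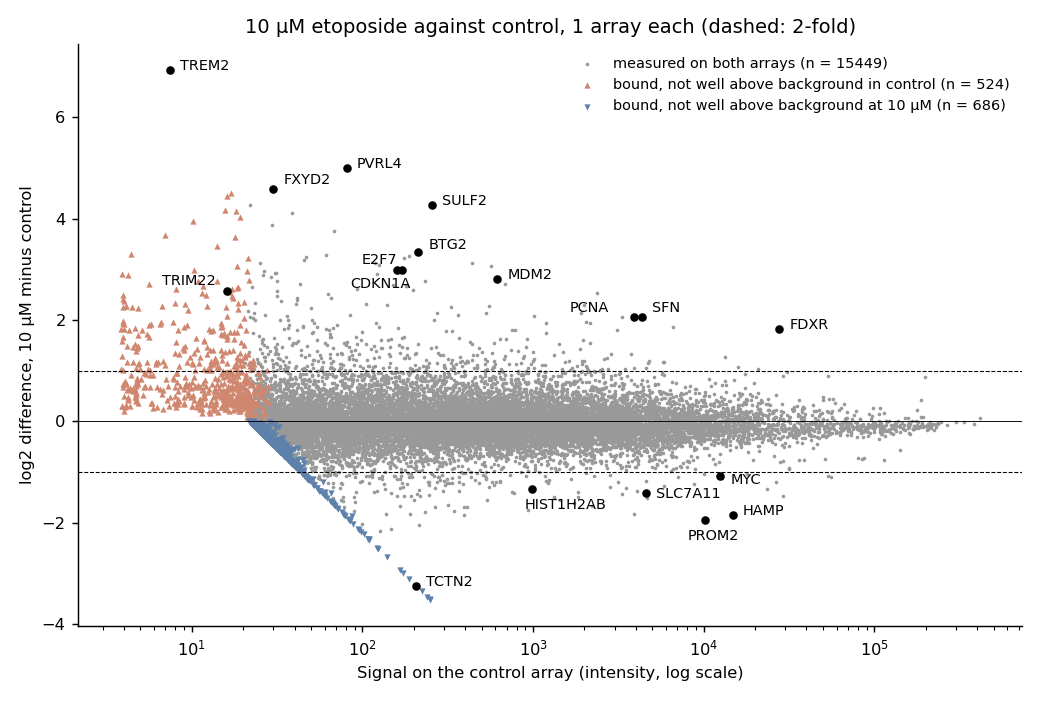
Log2 difference between 10 μM etoposide and control (vertical axis) against the control signal (horizontal axis, intensity on a log scale) for each gene with a measured difference or a bound, 1 point a gene, with genes named in the text in black. The 384 measured genes that were higher by 2-fold or more reach further from 0 than the 177 that were lower, and the falls given as bounds lie on a line because they end at the detection limit.

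The largest measured rise was that of PVRL4 (now NECTIN4, NM_030916, probe on hg18 at chr1:159308120-159308179), which encodes the adhesion molecule nectin-4. Control cells gave 80.8 and treated cells 2596, a 32.1-fold rise, and the 100 μM array read 1169. FXYD2, a regulatory subunit of the sodium pump, went from 30.0 to 723, which is 24.1-fold. The control signal of FXYD2 lay near the detection limit, and its dimmer second probe rose at least 1.51-fold. SULF2, an extracellular sulfatase that trims heparan sulfate, went from 255 to 4944 (19.4-fold), and GPR172B (now SLC52A1), a riboflavin transporter, from 22.0 to 425 (19.3-fold). PDE4C, a cAMP phosphodiesterase, and DAO, D-amino acid oxidase, followed at 14.6-fold and 13.6-fold. The control signals of GPR172B and PDE4C (29.6) also lay near the detection limit of 19.5, each at 1 probe and 1 spot.

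Among the next ranks, BTG2, an antiproliferative p53 target, rose 10.1-fold from 212 to 2148. EBI3, a subunit of interleukin-27 and interleukin-35, was measured by 10 spots and rose 9.74-fold from 61.4 to 598. CD3D, part of the T cell receptor complex, rose 9.61-fold from 187 to 1802. The potassium channel KCNN4 rose 9.08-fold, the adhesion receptor GPR56 (ADGRG1) and the lysyl oxidase LOXL4 each 8.67-fold, and the actin regulator EVL 8.66-fold. EVL rose from a control signal of 25.1, near the detection limit. CCDC74B (9.48-fold) and C9orf169 (CYSRT1, 9.30-fold) complete the 15 largest. The second probe of C9orf169 was also higher, and that of CCDC74B, not above background in control cells, rose at least 3.17-fold. In the paper's quantitative PCR, however, CCDC74B rose less than 2-fold at 10 μM.

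Some genes were seen only after treatment. TREM2 (NM_018965, chr6:41237042-41237101 on hg18), a receptor of macrophages and microglia, had a control signal of 7.46 that was not well above background and 2367 at 10 μM, a rise of at least 121-fold. Its signal at 100 μM was 1122. TBC1D26 (16.2 and 428), RRAD, a RAS-related GTPase and p53 target (15.7 and 352), PDE6C, a retinal phosphodiesterase (18.3 and 346), and OVOL1, an epithelial transcription factor (10.2 and 300), rose at least 21.9-fold, 18-fold, 17.7-fold and 15.4-fold. Each of these 5 genes rested on 1 probe and 1 spot.

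Markers of other cell types were looked at beside these rises. Of 11 leukocyte markers on the array, 7 were well above background on both arrays, and their summed signal was 2.01 times the control sum, or 1.22 times without CD3D. CD3D rose, CD14 rose 2.18-fold and PTPRC, the pan-leukocyte marker CD45, fell 2.04-fold from 257 to 126, while its other 4 probes were not well above background on either array. CD3E, the partner of CD3D, had 46.8 in control cells and 33.2 at 10 μM. Of 11 fibroblast markers 3 were above background, with ACTA2 rising 4.40-fold, and DES and PDGFRB at log2 differences of 0.01 and -0.57. Of 9 endothelial markers 4 were above background. TIE1 rose 2.20-fold, PECAM1 was at -0.73, CDH5 at 0.08 and ENG at 0.27. Of 7 bone and mesenchymal markers 3 were above background, with a median near 0. RUNX2 rose 3.97-fold at 1 of its probes while the other was not above background, and BGLAP was at -0.43. The part of other cell types in these rises was not tested, and in bulk RNA a change in the number of cells of a type and a change in RNA per cell cannot be told apart.

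The p53 targets that arrest the cycle or restrain p53 had the highest median of all lists but the study's own. Of 25 compared members, 13 rose 2-fold or more and none fell by as much, against 3.37% rising among all genes compared, and the median over the 24 measured members was 1.01. CDKN1A, which encodes the CDK inhibitor p21, had a signal of 170 in control cells and 1349 at 10 μM, a 7.94-fold rise. MDM2, the ubiquitin ligase that degrades p53, went from 616 to 4334, and its other 2 probes rose by 2.29 and 1.84 on the log2 scale. TP53INP1 rose 6.77-fold, PLK2 6.35-fold, PHLDA3 4.78-fold, SFN (14-3-3 sigma, which holds CDK1 in the cytoplasm) 4.14-fold and the phosphatase PPM1D 3.08-fold. TRIM22 was not above background in control cells (16 and 117) and rose at least 5.98-fold. Not all regulators of p53 moved this way. RCHY1 and RFWD2 (COP1), both ubiquitin ligases that act on p53, were at -0.81 and -0.64, MDM4 at 0.04 and CDKN2A at 0.03.

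Among p53 targets in DNA repair, 7 of 15 rose 2-fold or more and none fell 2-fold, against 3.37% and 1.57% of all genes, with a median of 0.47. POLH, the translesion polymerase eta, went from 139 to 686, PCNA, the sliding clamp of replication, from 3886 to 16191, and DDB2, which finds ultraviolet lesions, from 3327 to 13850. These are rises of 4.92-fold, 4.17-fold and 4.16-fold, and the second probe of each gene rose by 1.94, 2.18 and 2.12 on the log2 scale. SESN1 rose 3.13-fold, RRM2B, the p53-induced ribonucleotide reductase subunit, 3.06-fold at one probe and 1.88-fold at another, TRIAP1 2.25-fold and XPC 2.13-fold. The lowest members were POLK at -0.40, APEX1 at -0.39 and FANCC at -0.39.

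Of 24 compared p53 targets in cell death, 9 rose 2-fold or more and none fell by as much, against 3.37% and 1.57% of all genes. Their median was 0.75. TP53I3 went from 2365 to 13623 (5.76-fold) and its second probe by 2.69 on the log2 scale. The death receptor FAS went from 120 to 458 (3.82-fold), with 1.98 and 2.34 at its other probes, and LRDD (PIDD1) rose 3.47-fold. DRAM1, a lysosomal protein of autophagy, rose 2.77-fold and APAF1, the scaffold of the apoptosome, 2.34-fold. BAX, which opens the mitochondrial outer membrane, rose 2.07-fold at a probe of 10 spots and by 0.47 on the log2 scale at a dimmer probe. BBC3 (PUMA) was at 0.60 and BCL2L1 at 0.19, both under 2-fold, and the death ligand TNFSF10 was the lowest at -0.34. Of the 16 compared genes of the BCL2 family, BAX was the only member past 2-fold, and none fell 2-fold. Among all genes 3.37% rose and 1.57% fell as far.

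Another 27 genes were listed as p53 targets, many of them metabolic. Of these, 13 rose 2-fold or more and none fell 2-fold, against 3.37% and 1.57% of all genes. Of the 26 measured members 23 were higher and 3 lower, with a median of 0.92. Besides PVRL4, SULF2 and DAO, they included PRODH, proline dehydrogenase (125 and 1052, 8.42-fold), GLS2, the liver-type glutaminase (92.6 and 568, 6.13-fold), and FDXR, ferredoxin reductase (27768 and 98110, 3.53-fold). C12orf5 (TIGAR), a fructose bisphosphatase, rose 2.24-fold, and the cytokine LIF 2.43-fold. PVRL4, DAO, PRODH, PPM1D, E2F7, E2F2, IGFBP2 and APOBEC3B are among the 20 genes that the study listed from these arrays. All 20 had been chosen on these samples and rose 3-fold or more here. In the paper's quantitative PCR, however, CCDC74B, CRABP2 and NXPH4 of the 20 rose less than 2-fold at 10 μM. MDM2, PCNA and POLH met the same criteria, and the paper then set them aside for their known functions. The lists of p53 arrest, repair and other targets, G1/S regulators, replication fork, secreted factors and antiviral genes hold some of these chosen genes. The counts and medians of these lists include them, and are in part set by that choice. The paper's binding assay found p53 at PRODH and DAO, and the paper named no binding at PVRL4. From p53-deficient cells and p53 knockdown, the paper proposes that the rises of PVRL4, PRODH and DAO depend on p53.

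**Figure D2:**
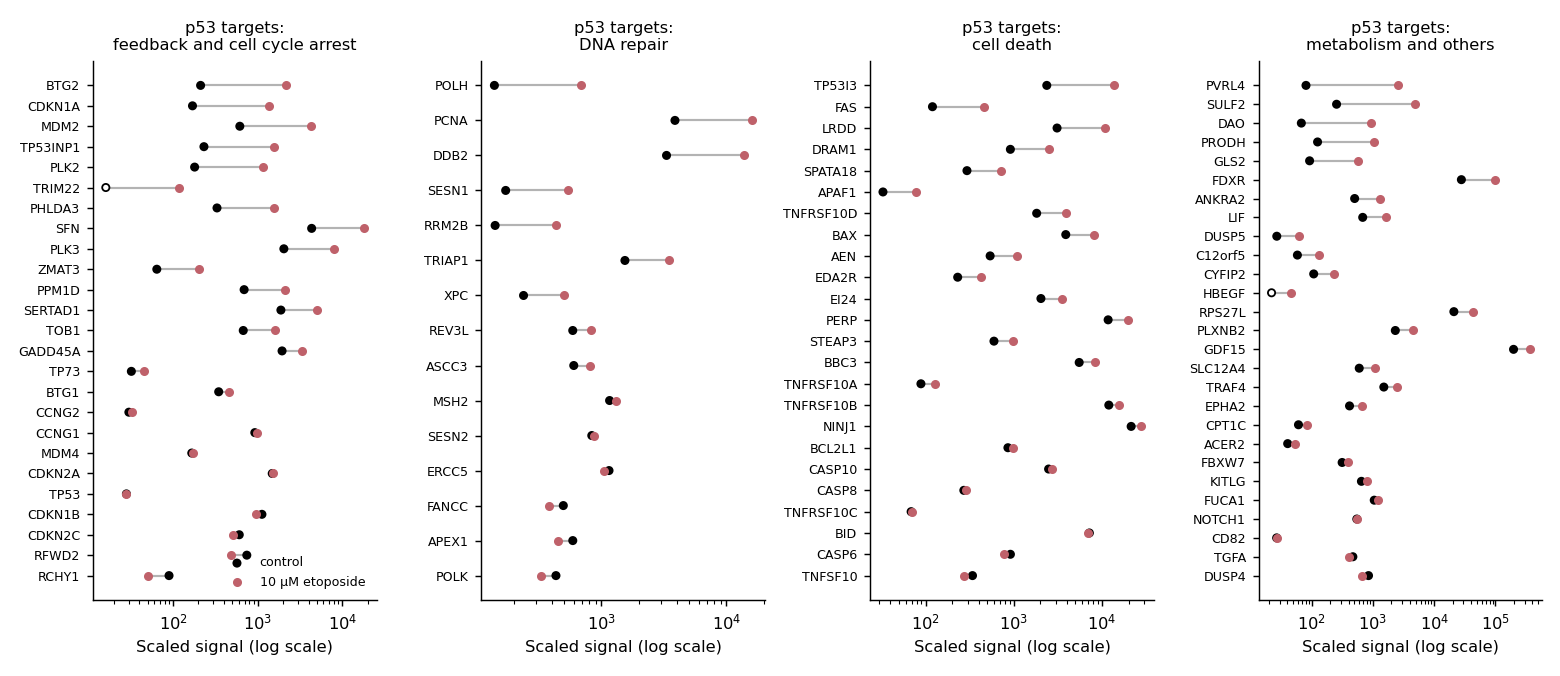
Scaled signals (log scale) of p53 target genes in control cells (black, open where not well above background) and at 10 μM etoposide (red), 1 line a gene, in 4 lists sorted by difference. The upper part of each panel holds genes whose treated signal lies to the right of control, 13, 7, 9 and 13 of them by 2-fold or more, and no gene lies 2-fold to the left.

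The p53 half-site is a 10-base motif that occurs in pairs in strong p53 elements, often within introns or further upstream than the window searched here. Pairs of half-sites with an intact core, at most 1 mismatch each and at most 13 bases between them were present in 0.89% of 27305 RefSeq promoters, which run from 250 bases before to 50 after the start of transcription (GRCh38.p14). None was found in the promoters of repair targets (12 of 15 available) or death targets (22 of 27), and for the other p53 lists the search was void because under 80% of promoters were available. GLS2 was the only p53 target of these lists in which a pair was found, 29 bases after its start (chr12:56488113-56488132, minus strand). It belongs to a list for which the search was void, and its pair holds 2 mismatches, the most allowed. The pair is shown as an example only, with both half-site cores in capitals.
GLS2: aggCTTGctggggCATGcgc

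Genes that act at the start of S phase were higher at 10 μM, as a group and in most members. Of 25 regulators of G1/S, 6 rose 2-fold or more and 1 fell, against 3.37% and 1.57% of all genes. Their median was 0.48. E2F7, an atypical E2F that represses other E2F targets and is itself a p53 target, had a signal of 160 in control cells, 1269 at 10 μM and 193 at 100 μM. Its second probe, not above background in control cells, rose at least by 1.44 on the log2 scale. E2F2, an activating E2F, went from 1189 to 3960 (3.33-fold) and read 324 at 100 μM. CCNE2, the cyclin E2 that starts S phase with CDK2, rose 2.79-fold, MYBL1 2.34-fold, E2F8 2.08-fold and the phosphatase CDC25A 2.08-fold. MYC fell 2.13-fold from 12506 to 5877 at a probe of 10 spots, and SKP2, which marks p27 for degradation, was at -0.97.

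Licensing factors load the helicase on DNA before S phase, and the list used here also holds other genes, such as CLSPN. All 28 members of the list were measured, 24 were higher and 4 lower, and the median was 0.59. Of the 28, 4 rose 2-fold or more, against 3.37% of all genes. These were CLSPN, the adaptor of the checkpoint kinase CHK1 (41.1 and 120, 2.93-fold), GINS4 (2.58-fold), the loader CDC6 (43.7 and 108, 2.46-fold) and CDC45L (CDC45, 3455 and 7052, 2.04-fold). The lowest members were DBF4 at -0.36, ORC5L at -0.24 and ORC4L at -0.12. Of 33 genes of the replication fork, 31 were higher, with a median of 0.66. Of the 33, 8 rose 2-fold or more, against 3.37% of all genes. After PCNA came POLA2, a subunit of the primase complex (130 and 356, 2.74-fold), DTL, which directs degradation of CDT1 and p21 (467 and 1161, 2.49-fold), the histone chaperone ASF1B (2.36-fold), the leading-strand polymerase POLE (2.27-fold), the flap nuclease FEN1 (2.18-fold), LIG1 (2.08-fold) and DSCC1 (2.02-fold). DTL and ASF1B were measured by 10 spots each. Ribonucleotide reductase subunit RRM2 rose 2.21-fold among 18 genes of nucleotide supply, of which 15 were higher.

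Genes of double-strand break repair had a median of 0.31. Of 29 compared, 5 rose 2-fold or more and none fell by as much, against 3.37% and 1.57% of all genes. Those that rose included EME1 (2.22-fold), the helicase BLM (2.17-fold), POLQ, the polymerase of microhomology joining (2.16-fold), and BRCA1 (583 and 1220, 2.09-fold). EME1, BLM and BRCA1 act in homologous recombination. The lowest members were the end-joining factors NHEJ1 at -0.39 and LIG3 at -0.22. XRCC3 was at -0.19 at its brightest probe and at 0.86 at its other one. Of 22 checkpoint genes 14 were higher and 8 lower, and CLSPN was the 1 member past 2-fold, a share near that of all genes (3.37%). The kinase ATM and its partner NBN were the lowest, at -0.67 and -0.80. The value of ATM came from 1 spot, and its dimmer second probe, of 10 spots, was at -0.22. Of 8 topoisomerase and linked repair genes none passed 2-fold, and TOP2B was the lowest at -0.42.

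The genes of mitosis did not follow those of replication. Of 27 regulators of G2/M, PKMYT1, a kinase that inhibits CDK1, was the only member that rose 2-fold (1936 and 4210, 2.17-fold), a share near the 3.37% of all genes, and none fell 2-fold. Of these genes 16 were higher and 11 lower, with a median of 0.13, and the next highest was ESPL1, which encodes separase, at 0.69. The lowest were PLK1, the kinase that drives mitotic entry (1111 and 675, -0.72), CDC20, the activator of the anaphase-promoting complex (911 and 609, -0.58), and AURKA (2330 and 1571, -0.57). Of 51 compared genes of the spindle and kinetochore none passed 2-fold in either direction, and they ran from 0.83 for MELK to -0.30 for NUF2, with a median of 0.15. On the 100 μM array the medians over members measured there were -1.53 for licensing, -1.19 for the fork, -2.25 for G2/M and -2.61 for spindle and kinetochore, from the same control array.

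**Figure D3:**
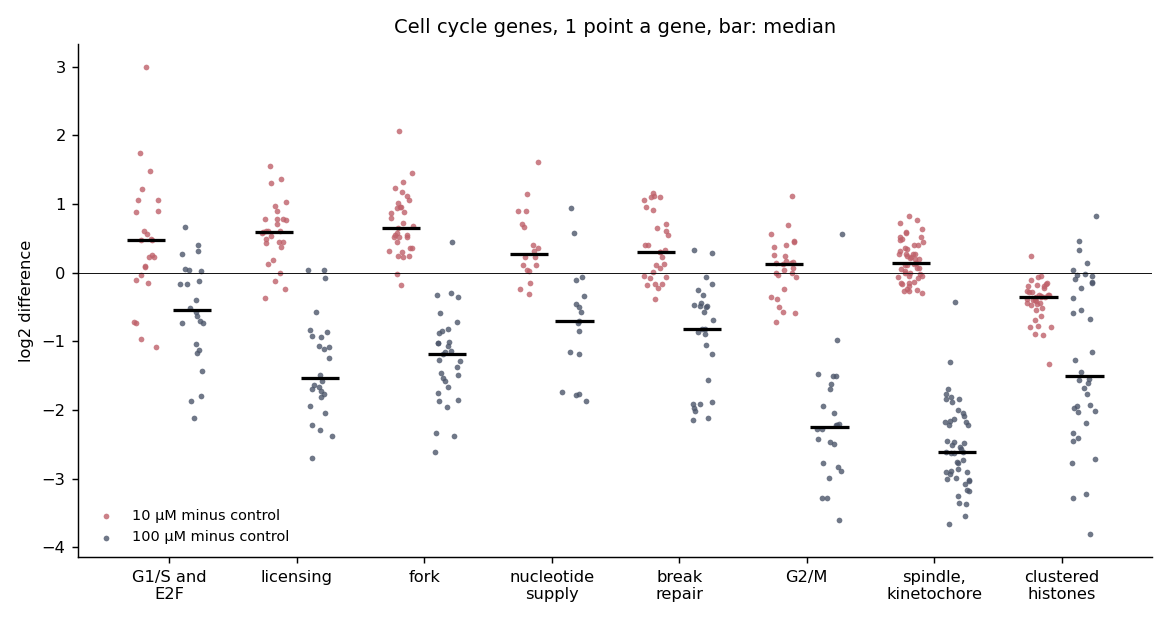
Log2 differences from control (vertical axis) of genes in 8 lists of the cell cycle, DNA repair and histones, measured on both arrays compared, at 10 μM (red) and 100 μM etoposide (gray), with bars at the medians. At 10 μM the licensing and fork genes center at 0.59 and 0.66, spindle genes at 0.15 and clustered histones at -0.36, and both doses share 1 control array.

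The promoters of these lists held different short motifs, in the same RefSeq window. The E2F octamers searched were TTTCCCGC and TTTGGCGC on both strands, and 1 or both were in 44.0% of the 25 licensing promoters found, in 32.1% of 28 fork promoters, in 8.89% of 45 spindle and kinetochore promoters, in 0 of 39 clustered histone promoters and in 2.31% of all promoters. The CHR element TTTGAA, on either strand, was in 71.1% of spindle and kinetochore promoters, 4% of licensing promoters, 3.57% of fork promoters and 15.4% of all. CCAAT, on either strand, was in 71.1%, 64.0%, 53.6% and 35.7%. No occurrence marked below overlaps another. Shown are the 120 bases before the start of the replication genes with the largest rises that hold an octamer there, PCNA (chr20:5126623-5126742, minus strand), DTL (chr1:212035628-212035747, plus strand) and POLE (chr12:132687343-132687462, minus strand), and of E2F2 (chr1:23531234-23531353, minus strand), with the octamer in capitals.
PCNA: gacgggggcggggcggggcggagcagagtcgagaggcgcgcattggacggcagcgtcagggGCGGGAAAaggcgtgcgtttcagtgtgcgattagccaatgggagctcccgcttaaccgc
DTL: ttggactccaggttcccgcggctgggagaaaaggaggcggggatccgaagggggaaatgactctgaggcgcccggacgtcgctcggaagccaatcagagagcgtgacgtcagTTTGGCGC
POLE: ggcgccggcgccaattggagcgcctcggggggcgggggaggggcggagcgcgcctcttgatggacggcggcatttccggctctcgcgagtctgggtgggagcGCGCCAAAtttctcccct
E2F2: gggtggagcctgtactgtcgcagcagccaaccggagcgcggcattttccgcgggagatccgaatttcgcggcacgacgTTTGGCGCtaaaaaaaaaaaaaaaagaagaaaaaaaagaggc

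The same stretch is shown for PLK1 (chr16:23678769-23678888, plus strand) and CDC20 (chr1:43358861-43358980, plus strand), the lowest G2/M genes, with CHR and CCAAT in capitals. In CDC20 the CHR element lies 65 bases before the start between a pair of CCAAT motifs at 100 and 55, and in PLK1 it lies 29 bases before the start.
PLK1: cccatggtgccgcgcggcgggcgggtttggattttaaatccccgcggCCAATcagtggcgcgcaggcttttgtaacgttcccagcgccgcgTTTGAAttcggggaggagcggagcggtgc
CDC20: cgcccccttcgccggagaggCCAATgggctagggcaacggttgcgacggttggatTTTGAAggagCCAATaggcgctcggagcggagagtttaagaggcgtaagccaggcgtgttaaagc

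Clustered histone genes, whose mRNAs mostly lack a poly(A) tail and are made in S phase, were lower. Of 39 measured members 38 were lower, with a median of -0.36. While 1.57% of all genes fell 2-fold, the only member to do so was HIST1H2AB (H2AC4, NM_003513). It read 991 in control cells and 393 at 10 μM, a 2.52-fold fall, and 102 at 100 μM. HIST1H2BB and HIST1H2AJ were at -0.91 and -0.90, and HIST2H2BE, which also has polyadenylated transcripts, was the one member that was higher, at 0.25. Probes of this family may bind several of its similar members. CCAAT was in 82.1% of the 39 histone promoters found, and that of HIST1H2AB (chr6:26033619-26033738, minus strand), shown with CCAAT in capitals on either strand, has 2 in the 120 bases before its start.
HIST1H2AB: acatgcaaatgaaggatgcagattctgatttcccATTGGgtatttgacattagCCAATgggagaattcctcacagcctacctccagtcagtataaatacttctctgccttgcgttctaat

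The largest measured falls belonged to scattered genes. PROM2, a membrane protein related to prominin, went from 10125 to 2618 (3.87-fold) while the 100 μM array read 10475, and its second probe was not above background. ETV7 (126 and 28.2), GDAP1L1 (148 and 33.9) and TAS2R30 (99.2 and 24.2), with treated signals close to the detection limit, fell 4.48-fold, 4.35-fold and 4.09-fold. FUT1, a fucosyltransferase measured by 10 spots, fell 3.62-fold from 395 to 109. CCDC66 fell 3.57-fold from 3917 to 1096 and read 6547 at 100 μM. TCTN2 (206 and 15.2), CLEC11A (187 and 13.3) and OR5A1 (173 and 16.8) were not above background at 10 μM and fell at least 9.50-fold, 8.61-fold and 7.96-fold.

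Some genes of hepatocytes fell, but the liver lists as a whole stayed close to control. Of 24 compared hepatocyte transcription factors and receptors 1 fell 2-fold, with a median of -0.08, and of 23 cytochrome and bile genes 1 fell and 15 were higher, with a median of 0.12. In each list this is 1 gene, where 1.57% of all genes fell 2-fold. HAMP, which encodes the iron hormone hepcidin, fell 3.60-fold from 14750 to 4102. SLC10A1, the bile acid importer NTCP, fell 3.39-fold from 343 to 101 and read 618 at 100 μM. The bile acid receptor NR1H4 (FXR) fell 2.32-fold from 1217 to 526 and read 1124 at 100 μM, and the coactivator PPARGC1A was at -0.99. INHBE, a liver activin subunit, fell 3.57-fold, and its neighbor INHBC fell by 1.47 on the log2 scale. Of 34 compared plasma proteins none passed 2-fold, from FGA at 0.63 to ALB at -0.74 (3966 and 2370), with a median of 0.16, and the 17 apolipoproteins had a median of 0.09 with none past 2-fold.

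Genes of the amino acid response, targets of the transcription factor ATF4, were lower. Of 25 compared members 22 were lower, with a median of -0.59, and 3 fell 2-fold or more, against 1.57% of all genes compared. SLC7A11, the cystine importer, went from 4579 to 1718 (2.67-fold), CTH, which makes cysteine, from 4575 to 2025 (2.26-fold), and TRIB3, a pseudokinase that restrains ATF4, from 53540 to 25205 (2.12-fold). The members that were higher were ATF3 (0.93), GADD45A (0.78) and SESN2 (0.07), which also respond to p53. Dimmer probes of ATF3 were at 0.80, 0.77 and -0.35. SLC7A11 was also the one gene past 2-fold among 25 targets of NRF2, where 1.57% of all genes fell as far. Of these 25 targets 19 were lower, and GPX1, glutathione peroxidase, was the highest at 0.98.

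Cholesterol synthesis genes shifted by less. Of 27 members 24 were lower, with a median of -0.26 and none at 2-fold or more. Ribosomal protein genes were lower in 47 of 48, with a median of only -0.12. Receptors differed among themselves, since NOTCH3 rose 5.28-fold from 41.6 to 220, whereas EGFR was lower. EGFR fell 2.37-fold from 386 to 163 at its brightest probe, which had 1 spot. At a second probe, of 10 spots and assigned to another transcript, EGFR fell only 1.28-fold (-0.35). ERBB4 fell at least 2.16-fold and IGF1R was at -0.78. Among metallothioneins, which share much of their sequence, MT1G fell 3.05-fold and MT2A was at 0.90.

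**Figure D4:**
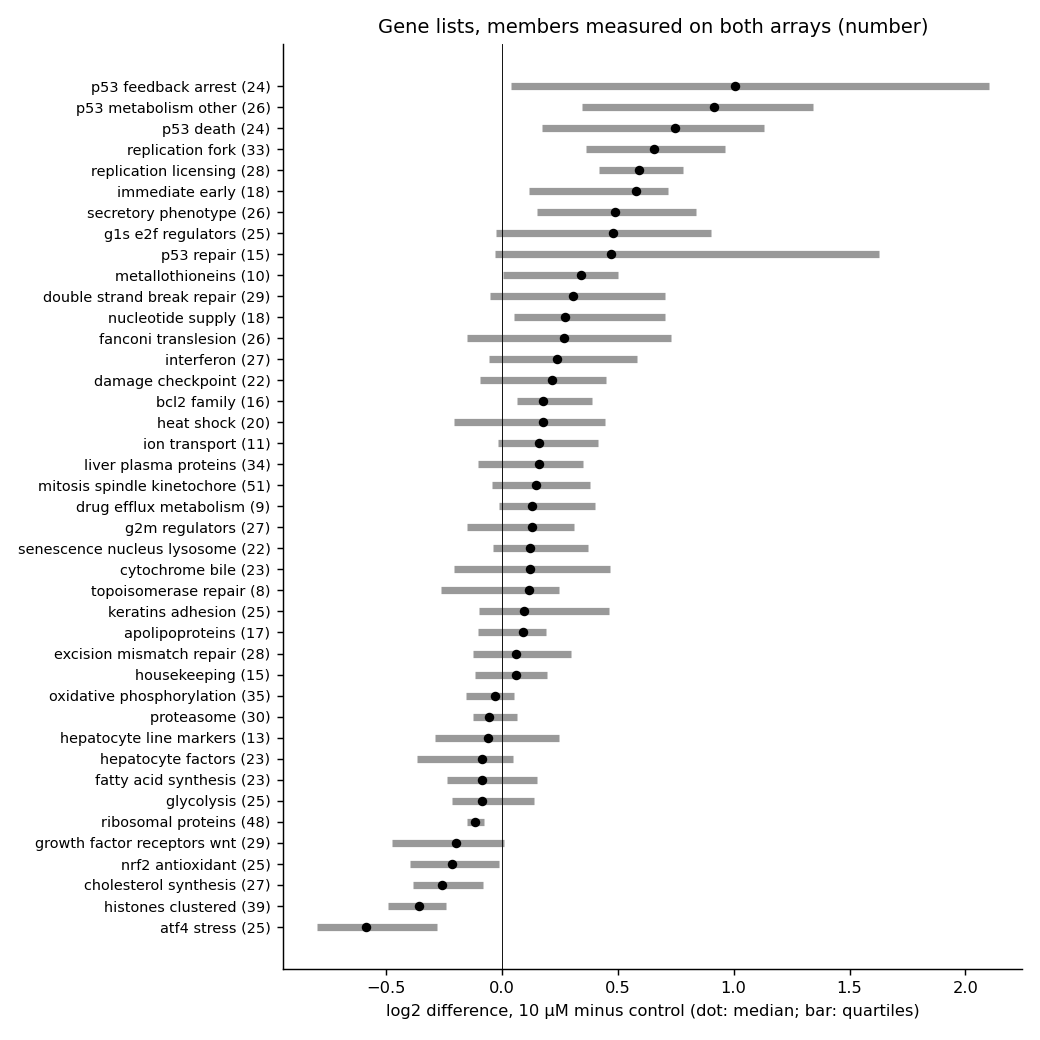
Median (dot) and quartiles (bar) of the log2 difference between 10 μM etoposide and control over the members of each gene list measured on both arrays, with their number in parentheses, for lists of 8 or more. The list the study chose on these samples is not drawn. Feedback and arrest targets of p53 (1.01) lie at the top and the replication fork at 0.66, with clustered histones (-0.36) and ATF4 targets (-0.59) at the bottom.

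Secreted factors of senescent cells were represented by few genes. Of 59 listed, 32 were not well above background on either array, among them IL6, IL8, IL1A, IL1B and CCL2. Of the 27 compared, 5 rose 2-fold or more and none fell by as much, against 3.37% and 1.57% of all genes. IGFBP2, measured by 10 spots, went from 26.4 to 205 (7.77-fold), IGFBP1, a liver secretory protein, from 1994 to 9765 (4.90-fold), and IGFBP7 and the membrane protease MMP14 rose 2.36-fold and 2.28-fold, with LIF as the fifth. TGFB3 was the lowest at -0.98. None of the 22 compared genes of the senescent nucleus and lysosome passed 2-fold, from LMNA at 0.54 to HMGA2 at -0.50.

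Antiviral genes went in both directions. Of 30 compared, 7 rose 2-fold or more and none fell by as much, against 3.37% and 1.57% of all genes. They were APOBEC3F (65.5 and 353, 5.39-fold, and 2.07-fold at a second probe), APOBEC3B (40.8 and 204, 4.99-fold), APOBEC3C (105 and 522, 4.96-fold), APOBEC3H (4.67 and 69.7, at least 3.57-fold), TRIM22, TMEM173 (STING, 2.96-fold) and OAS3 (2.42-fold). APOBEC3 enzymes deaminate cytosine in single-stranded DNA, and their similar sequences may share probes. Of the 27 measured members 19 were higher and 8 lower. The interferon-induced genes OAS2, IFIT3 and IFIT1 were lower, at -0.78, -0.74 and -0.56. Another measured probe of OAS2 was at 0.04, and the treated signals of OAS2 and IFIT3 were low (32.7 and 42.9).

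Some genes that rose lie near each other on hg18. Within 100 kb steps, 114 of the genes higher by 2-fold or more formed 51 groups, and 13 lower genes formed 6. How many groups an equal number of any compared genes would form was not counted, so clustering cannot be read from these counts. Some groups also span compared genes that did not rise 2-fold, such as 1 with 4 of 17. The 4 APOBEC3 genes form a group on chr22, in a span of 6 compared genes. ACTA2 and FAS neighbor each other on chr10, TP53I3 and PFN4 (at least 2.09-fold) on chr2, PRODH and DGCR5 (at least 2.22-fold) on chr22, IER5 (3.86-fold) and MR1 (5.99-fold) on chr1, and LIF and MGC20647 (at least 22.6-fold, from 16.9 to 441) on chr22. Overlapping or shared transcripts of neighbors were not told apart.

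Long genes were lower. RefSeq gives a length for 84.0% of measured genes, and the median difference was -0.01 for the 1710 genes under 5 kb, 0.00 for the 3459 of 20 to 50 kb, -0.11 for the 1284 of 100 to 200 kb and -0.22 for the 707 over 200 kb. Only 26.3% of the longest class were higher than control. Within each of 3 classes of control signal the genes over 200 kb had the lowest median, -0.14 under 200, -0.23 from 200 to 2000 and -0.35 above. On the 100 μM array the medians were 0.16 under 5 kb, -0.08 for 100 to 200 kb and -0.04 over 200 kb. Genes are not independent replicates, so these medians describe 2 arrays.

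**Figure D5:**
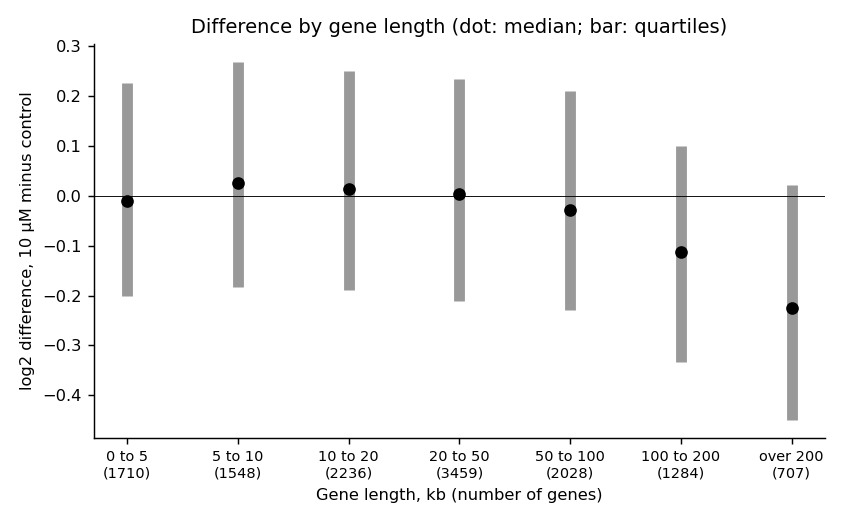
Log2 difference between 10 μM etoposide and control (vertical axis; dot, median; bar, quartiles) by gene length in kb (number of genes in parentheses). The medians lie near 0 up to 50 kb and reach -0.22 in the 707 genes over 200 kb.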

How the data were processed

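HepG2 RNA, carrying the dye Cy3, was measured on Agilent arrays of 60-base probes read in 1 color, 1 array for each of 3 conditions (0, 10 and 100 μM etoposide, 30 h). The authors deposited the output of Agilent Feature Extraction 10.7.3.1, as named in the submitters' processing notes and the file headers, and the values used are the intensity of each spot after background subtraction and detrending, not scaled between arrays. The deposited table of the whole series was compared with these spot by spot and holds the same intensity values within a relative tolerance of 0.001. No columns of the authors' own comparisons were present, and no per-sample column was left out.

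From there, log2 intensity was averaged over the spots of a probe, without outlier spots, and each array was scaled to its own 75th percentile over probes. A difference needed the software's call of well above background on the brighter array, and the dimmer signal was raised to the lowest signal with that call, 19.5 in control cells and 21.7 at 10 μM on the control scale. The brightest probe over the 3 arrays represented a gene. The SD between spots was taken from the 50 repeated probes (10 spots each) nearest in signal. No test was possible with 1 array a condition, and no p-value was computed. The number of arrays limits the precision. The steps were tested on simulated data.

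The members and gene lists were chosen with earlier results of these data known. Genes named are the 15 largest rises and falls among genes with a RefSeq mRNA accession measured on both arrays, the 5 largest bounds each way, the 3 highest and lowest members of each list, members past 2-fold, genes the study names from its arrays, and other probes of these. Some genes that this rule selects are not reported here. Other members and neighbors were named for their role after their values were seen. Probe positions are those of the files (hg18), with no annotation of exons used here. Promoters and gene lengths came from RefSeq tables (GRCh38.p14). A promoter was found for 25 of 28 licensing, 28 of 33 fork, 45 of 52 spindle and 39 of 43 histone genes, and the motif check was void for all genes that rose 2-fold, since too few had one.

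Python 3.11.15, pandas 2.3.3, numpy 2.4.6, R 4.3.3 and limma 3.58.1 were used. Alternatives were other scalings, normexp background correction (offset 50), other filters on dim probes, outlier spots kept, the median over probes, RefSeq mRNA genes only and a GC correction.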

Additional observations from a re-analysis of the deposited data

How the results depend on the processing

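No paired analysis was possible because there was a single array for every dose. Across 13 alternatives, none of the 145 named genes past 2-fold changed sign, though 43 of them fell under 2-fold in at least 1. The counts of genes higher and lower were 253 and 81 at 2-fold and 70 and 8 at 3-fold with normexp background correction, which raises low signals by its offset, and 1250 and 949, and 527 and 328, without a filter on dim probes. With only probes well above background on both arrays the 3-fold counts were 125 and 23. With only RefSeq mRNA genes 162 were lower by 2-fold and 35 by 3-fold. The other alternatives stayed within 1.5 times, and without scaling 649 were higher and 231 lower by 2-fold. The median of p53 arrest genes was 0.93 with normexp and 0.64 without the filter, that of p53 death genes 0.61 and 0.60, and that of other p53 targets 0.73 with normexp. The medians of hepatocyte markers (0.025 with quantile normalization) and housekeeping genes (-0.041 with the median over probes) changed sign close to 0. The medians of the replication, mitosis, histone, ATF4 and cholesterol lists kept their direction throughout. Before scaling, the mean log2 difference of 7 spike-in controls was 0.01 (SD 0.04). With 1 array a condition, falls of dim genes end at the detection limit.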
